A study of Mus musculus with 28 samples.

Results

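To describe the transcriptomes of liver and lung in mice without induced APOBEC3B (A3B), the 3 control livers and the 3 control lungs of one RNA sequencing set were compared gene by gene. These were 6 of the 12 samples of a table of 24849 gene rows, in a series of 28 samples, and 13258 genes whose mean over the 6 samples was 1 TPM (transcripts per 1000000) or more were tested. The mouse model carries a human A3B cDNA fused to turboGFP at the ColA1 locus, under a tetracycline-responsive promoter, and needs the transactivator of the CAGs-rtTA3 transgene and doxycycline for expression. Livers 91 and 92 and lungs 88 and 91 were labelled A3B, that is, the transgene without the driver. Lung 87 was labelled CAGs, the driver without the A3B transgene, and liver 11 was labelled A3B + CAGS-rtTA, with both. The labels give 15 days on treatment for each of the 6 samples, whereas the study's list of mice gives no doxycycline for 5 of them, liver 11 included. By the labels alone liver 11 would thus have the genotype and treatment of an induced mouse, but its transgene row stood at 0.144 TPM, against 0.143 and 0.0929 TPM in the other livers. The mice were adults, and the labels give neither age nor sex. Mouse 91 gave both a liver and a lung, so that the 6 samples came from 5 mice, and throughout the text livers are given in the order 11, 91, 92 and lungs in the order 87, 88, 91.

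The liver is built mainly of hepatocytes, which secrete the plasma proteins and lipoproteins, turn ammonia into urea, make bile acids and oxidise foreign compounds, beside Kupffer cells (the resident macrophages), sinusoidal endothelium, stellate cells and bile duct epithelium. In the lung, flat alveolar type I cells and a dense capillary bed form the gas exchange surface, type II cells secrete surfactant, and club and ciliated cells line the airways over fibroblasts, smooth muscle and macrophages. In bulk tissue of this kind, fewer cells of a type and less RNA per cell cannot be told apart. Differences are given as liver minus lung on the log2(TPM + 1) scale, so that positive values are higher in liver, with the standard error (SE) and the Benjamini-Hochberg adjusted p of limma. On this scale a difference understates the change of a gene at a low level.

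Of the 13258 genes, 1956 were higher in liver (14.8% of those tested) and 8281 were higher in lung (62.5%) at an adjusted p under 0.05, and 3021 passed in neither direction. The count of called members of each list below is to be read against these shares. With a difference of at least 2 on the log2 scale as well, 828 genes were higher in liver and 3166 in lung. The 3 livers and the 3 lungs did not overlap for 10643 genes (80.3%). The median difference over all genes was -0.98, and in the livers more of the signal lay in few genes: the 50 most abundant genes held 13.4% to 16.3% of reads per liver but 6.6% to 7.0% per lung, and the 50 highest by TPM held 26.9% to 28.8% of TPM per liver and 18.9% to 20.2% per lung. The median tested gene stood at 5.70 to 8.13 TPM in the livers and at 14.5 to 15.8 TPM in the lungs. When each sample was centred on its median gene, 4772 genes were higher in liver and 4266 in lung, and the share of calls that were higher in liver went from 19.1% to 52.8%. A lung-high difference of about that shift or less therefore depends on the scale, and the centred value is given beside such genes and list counts. Reads recovered from the table numbered 23182200 to 42765905 in the livers and 40097319 to 50318447 in the lungs.

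**Figure D1:**
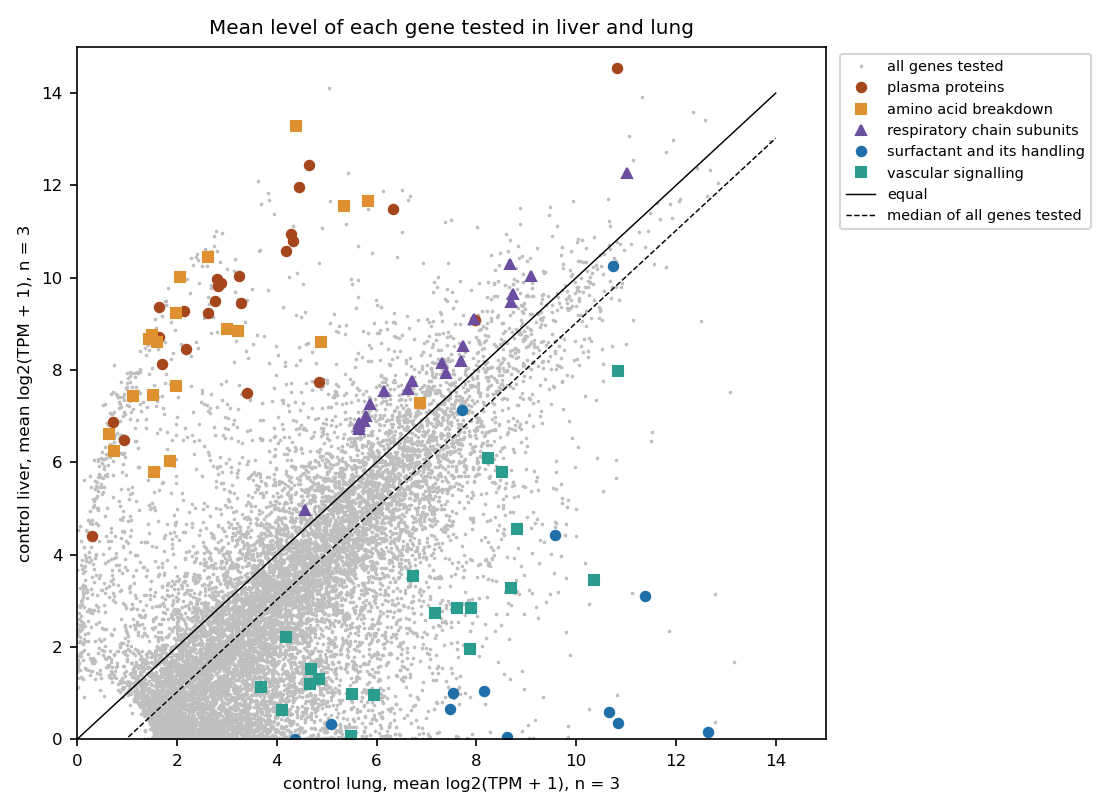
Mean log2(TPM + 1) of the 3 control livers (vertical axis) against that of the 3 control lungs (horizontal axis) for the 13258 genes tested, each gene a grey point and the members of 5 lists in colour, with a solid line for equal levels and a dashed line shifted by the median of all genes (-0.98). Most plasma protein and amino acid genes lie far above the lines, with Hp and Oat close to the line of equal levels. Respiratory chain subunits lie just above the lines, and surfactant and vascular genes below them, with the surfactant genes Abca3 and Ctsh between the lines.

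Several libraries stood apart within their tissue. Among 140 genes at 100 TPM or more in liver and under 0.1% of that level in lung 87 (a choice that fixes lung 87 as low), lung 88 held a median of 2.68% of the liver level and lung 91 held 0.18%, with 139 of the 140 genes in the order lung 88, lung 91, lung 87. The quartiles were narrow, 2.11% to 3.48% in lung 88 and 0.124% to 0.26% in lung 91. The 12 hepatocyte markers summed, as reads per 1000000 (CPM), to 83.4 in lung 87, 2486 in lung 88 and 271 in lung 91, against 24820, 34640 and 34810 in the livers. For the livers, 43 genes were taken at 100 TPM or more in lung and under 0.1% of that level in whichever liver was lowest. Their medians were 0.0126%, 0.02% and 0.00841% of the lung level, which this choice partly fixes as low. Of 378 genes higher in liver by more than 4 on the log2 scale, 374 had their highest lung value in lung 88, so differences are also given without lungs 88 and 91 where this moves a printed difference by more than 1.5-fold. That leaves lung 87 alone, assumed to vary like the livers, and 1245 genes were then higher in liver and 5494 in lung. Of the genes with a printed difference, the liver-high Glul, Slc4a4, A1cf, Bst2 and Dntt and the lung-high Fmo1, Foxa1, Tbx3, Adar, Itsn1, Ube2d2a, Xrcc1, Polb, Polr2a, Irf9, Gpr182, Stab1, Alas2 and Mylpf were then no longer called. The part of hepatocyte transcripts in the levels of lungs 88 and 91 was not tested.

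**Figure D2:**
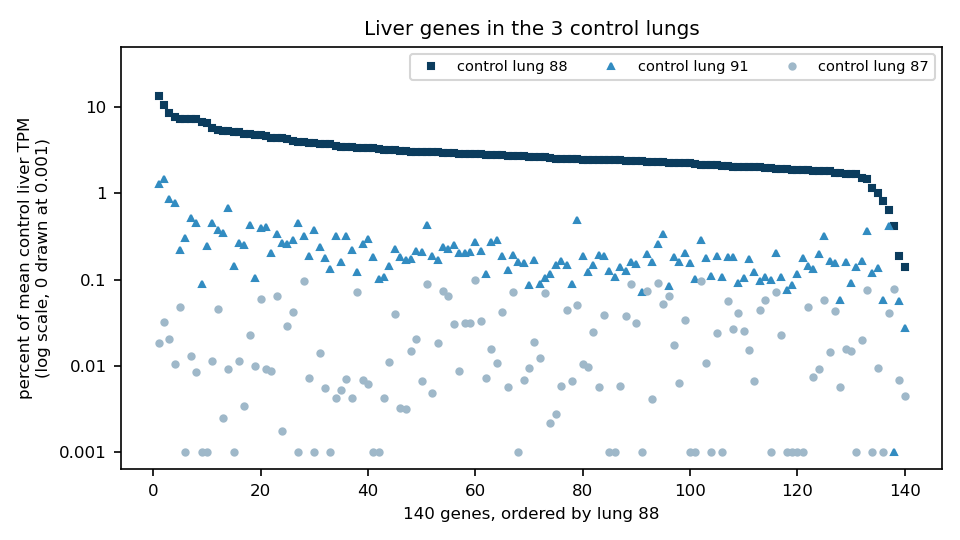
Level of 140 liver genes in each control lung as a percent of their mean level in the control livers (log axis), each gene a point. The medians are 0.0108% in lung 87, which was used to choose the genes, 2.68% in lung 88 and 0.18% in lung 91.

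Liver 11 differed from the other livers in genes of the Y chromosome and in genes known to differ between male and female mouse livers. Ddx3y, an RNA helicase gene of the Y chromosome, stood at 9.09, 0.00943 and 0.0102 TPM in the livers and 0.0119, 0.0132 and 0.00309 TPM in the lungs, and Eif2s3y, a Y-linked translation factor, at 22, 0 and 0 TPM in the livers and 0, 0 and 0 TPM in the lungs. Only liver 11 was clearly above 0 for these genes. Mup20, which encodes a urinary pheromone protein, stood at 2672, 117 and 65.5 TPM in the livers, and Cyp2d9, a steroid hydroxylase, at 2913, 33.9 and 34.5 TPM. A1bg stood at 1.42, 5251 and 6348 TPM, Cyp2a4 at 0.613, 1174 and 1860 TPM and the sulfotransferase Sult2a1 at 0, 53.9 and 104 TPM, so that liver 11 was the high library for the first genes and the low one for these. Of 13 tested members of a list of sex-biased liver genes, 7 were called higher in liver with all samples (8 after centring), 4 without lungs 88 and 91, and 13 without liver 11. The correlation of log2(TPM + 1) over genes was 0.957 and 0.959 between liver 11 and the other livers and 0.992 between livers 91 and 92, and it was 0.966 to 0.984 between the lungs.

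**Figure D3:**
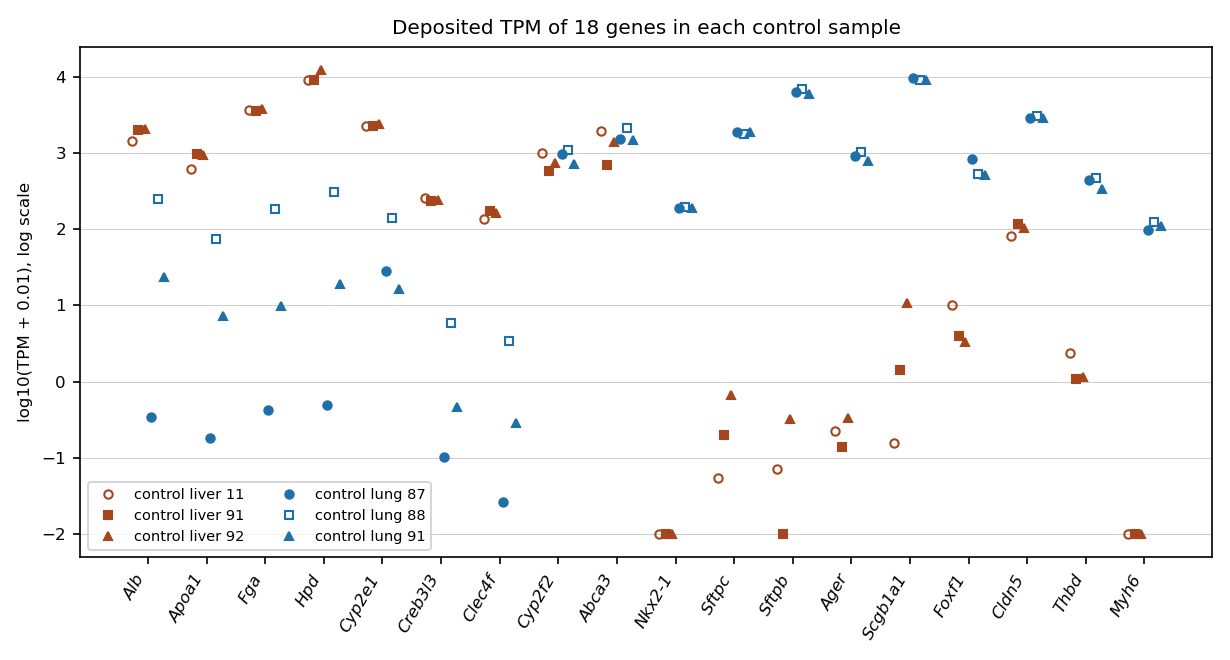
TPM of 18 genes in each of the 6 samples (log axis, log10 of TPM + 0.01), with livers in brown, lungs in blue and each point 1 sample. Surfactant and airway genes sit far above the livers in all 3 lungs, Cyp2f2 and Abca3 overlap, and the 7 liver genes are spread over the lungs with lung 88 highest.

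The 200 bases before the annotated start are printed for 5 genes, to show what the upstream sequence of such genes looks like. No link between these sequences and the differences was tested. They come from RefSeq for GRCm38.p6, 5' to 3' on the strand of the gene. Ahsg (fetuin-A, a plasma protein; chr16:22891815-22892014, plus strand) and Sftpb (surfactant protein B; chr6:72304410-72304609, plus strand) had the largest differences of their lists among members with an entry, and no match is marked in them. Fga (fibrinogen alpha chain; chr3:83025953-83026152, plus strand), Cyp8b1 (sterol 12-alpha-hydroxylase; chr9:121916306-121916505, minus strand) and Scgb3a1 (an airway secretoglobin; chr11:49663395-49663594, plus strand) were chosen after their motif matches had been seen, and the capitals mark those matches: an HNF1 motif on the reverse strand in Fga, an HNF4 motif and a TATA box in Cyp8b1 and an NKX2-1 motif in Scgb3a1.
Ahsg: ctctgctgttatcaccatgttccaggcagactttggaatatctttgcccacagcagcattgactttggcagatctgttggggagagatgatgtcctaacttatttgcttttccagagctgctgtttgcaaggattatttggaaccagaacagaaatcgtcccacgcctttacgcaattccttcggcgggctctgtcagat
Sftpb: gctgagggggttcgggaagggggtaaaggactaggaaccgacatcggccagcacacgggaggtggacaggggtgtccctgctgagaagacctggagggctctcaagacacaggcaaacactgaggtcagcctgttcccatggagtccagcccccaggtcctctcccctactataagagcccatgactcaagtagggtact
Fga: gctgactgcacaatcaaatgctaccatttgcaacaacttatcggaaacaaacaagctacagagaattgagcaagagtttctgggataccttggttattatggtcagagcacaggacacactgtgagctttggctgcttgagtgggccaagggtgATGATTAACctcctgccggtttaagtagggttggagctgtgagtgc
Cyp8b1: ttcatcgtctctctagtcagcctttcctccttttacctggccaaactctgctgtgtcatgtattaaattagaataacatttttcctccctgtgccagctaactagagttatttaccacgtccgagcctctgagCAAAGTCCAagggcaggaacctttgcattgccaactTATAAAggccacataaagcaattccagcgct
Scgb3a1: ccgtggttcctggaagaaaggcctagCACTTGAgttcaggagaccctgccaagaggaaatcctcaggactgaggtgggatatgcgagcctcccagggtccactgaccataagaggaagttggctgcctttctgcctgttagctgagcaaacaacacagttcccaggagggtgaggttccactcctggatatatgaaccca

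Secreted plasma proteins were higher in liver throughout. All 25 listed members were higher in liver (14.8% of all genes were), and their median difference was 6.48, against -0.98 over all genes tested. Alb, which encodes serum albumin, stood at 1427, 1972 and 2037 TPM in the livers and 0.331, 245 and 23.6 TPM in the lungs. Every liver was above every lung, and the lungs themselves spread over almost 3 orders of magnitude, in the order of the hepatocyte markers. The difference was 6.48 ± 1.69 (SE, adjusted p = 0.011), it was 10.39 without lungs 88 and 91, and without liver 11 it did not pass (adjusted p = 0.068). Serpina3k, a protease inhibitor of plasma, likewise passed with all samples (7.79, adjusted p = 0.0063) and not without liver 11 (adjusted p = 0.052). When lungs 88 and 91 were left out, Serpina3k stood at 11.89 and the median of the list at 7.91.

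Trf, the transferrin gene for iron transport, was abundant in both tissues, at 19370, 25540 and 27150 TPM in the livers and 1522, 3039 and 1292 TPM in the lungs. All lungs were below all livers, and lung 87, with the fewest hepatocyte transcripts, was above lung 91. Its difference was 3.71 ± 0.34 (SE, adjusted p = 5.9e-05). Rbp4, the plasma carrier of retinol, stood at 2641, 2938 and 3053 TPM in the livers and 42.9, 174 and 65.9 TPM in the lungs and differed by 5.17 ± 0.47 (SE, adjusted p = 5.7e-05). Ahsg, whose upstream sequence is printed above, stood at 2863, 4574 and 4895 TPM in the livers and 0.534, 298 and 21.1 TPM in the lungs (7.53 ± 1.71 SE, adjusted p = 0.0056). For Rbp4 and Ahsg the differences were 6.03 and 11.35 without lungs 88 and 91. Haptoglobin (Hp), which binds free haemoglobin, had the smallest difference of the list, 1.10 ± 0.18 (SE, adjusted p = 0.0011), at 487, 559 and 584 TPM in the livers and 234, 303 and 224 TPM in the lungs, with the ranges apart.

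Of 14 tested genes of apolipoproteins and lipoprotein assembly, 13 were higher in liver and 1 in lung, with a median of 6.4. Apoa1, the main protein of high-density lipoprotein, stood at 614, 977 and 953 TPM in the livers and 0.171, 73.2 and 7.3 TPM in the lungs, a difference of 6.53 ± 1.35 (SE, adjusted p = 0.0036). Apof, an inhibitor of lipid transfer between lipoproteins, had the largest difference, 7.94 ± 1.20 (SE, adjusted p = 0.00081), and Apoc3, which slows triglyceride clearance, differed by 6.79 ± 1.18 (SE, adjusted p = 0.0016). These differences were 9.47, 10.21 and 9.35 without lungs 88 and 91, and the median was 7.78. The exception was Pltp, the phospholipid transfer protein, at 7.22, 9.76 and 9.47 TPM in the livers and 85.1, 92.7 and 75.3 TPM in the lungs. All lungs were above all livers for Pltp, and the difference of -3.12 ± 0.18 (SE, adjusted p = 6.4e-06) was -2.04 after centring.

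The genes of coagulation and fibrinolysis were split between the tissues. Of 21 tested, 16 were higher in liver and 5 in lung (16 and 4 after centring), and the median was 5.69, or 6.37 without lungs 88 and 91. The fibrinogen alpha chain gene Fga stood at 3607, 3572 and 3751 TPM in the livers and 0.417, 186 and 9.81 TPM in the lungs, which gave one of the 12 largest liver-high differences (8.0, adjusted p = 0.0029). The fibrinogen genes Fgb and Fgg differed by 7.92 and 7.44, and Plg, which encodes plasminogen, by 7.95, all with adjusted p of 0.0035 or less. Fga, Fgb, Fgg and Plg stood at 11.33, 11.49, 10.22 and 10.53 without lungs 88 and 91. Vwf, the adhesive protein that endothelial cells store, stood at 1.73, 1.47 and 1.72 TPM in the livers and 84.4, 97.7 and 67.7 TPM in the lungs and differed by -4.98 ± 0.18 (SE, adjusted p = 1.6e-06). Thbd, the endothelial thrombin receptor thrombomodulin, stood at 2.35, 1.07 and 1.13 TPM in the livers and 446, 464 and 333 TPM in the lungs and differed by -7.39 ± 0.25 (SE, adjusted p = 1.3e-06), the largest lung-high difference of the list. Plat, the tissue plasminogen activator, and F3, tissue factor, were also higher in lung (-5.47 and -3.25), and so was the anticoagulant protein S gene Pros1 at -1.56, which was no longer called after centring (-0.48).

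All 10 tested genes of the urea cycle and of ammonia handling were higher in liver, with a median of 4.85, and the count was the same after centring. Cps1, the mitochondrial enzyme that brings ammonia into the cycle, stood at 294, 109 and 150.5 TPM in the livers and 0.0018, 4.02 and 0.188 TPM in the lungs, and Nags, which makes its activator, at 234, 212 and 273 TPM in the livers and 0.426, 6.67 and 0.801 TPM in the lungs. These genes were near 0 in lungs 87 and 91. The differences were 6.55 ± 0.66 (SE, adjusted p = 9.6e-05) and 6.47 ± 0.60 (SE, adjusted p = 6.2e-05), and 7.41 and 7.39 without lungs 88 and 91. Glul, which fixes ammonia in glutamine, was also abundant in lung, at 706, 737 and 777 TPM in the livers and 434, 276 and 252 TPM in the lungs, and differed by 1.25 ± 0.23 (SE, adjusted p = 0.002), a call that was lost on lung 87 alone (0.77, adjusted p = 0.06). Ass1, a further enzyme of the cycle, was below the filter at this table's values and was not tested.

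Of 20 genes of amino acid breakdown, 19 were higher in liver. The median of the list was 5.95, or 6.65 without lungs 88 and 91. The exception was ornithine aminotransferase (Oat), which did not pass (0.43, adjusted p = 0.1) before centring and did after it. Hpd, an enzyme of tyrosine breakdown, stood at 9088, 9101 and 12150 TPM in the livers and 0.486, 303 and 18.8 TPM in the lungs. The livers were close to each other, and the lungs ran from near 0 in lung 87 to 303 TPM in lung 88. The difference was 8.91 ± 1.72 (SE, adjusted p = 0.0026), and 12.72 without lungs 88 and 91. Uroc1, urocanase of histidine breakdown, differed by 7.97 ± 1.07 (SE, adjusted p = 0.00044). Mat1a and Gnmt, which make and use S-adenosylmethionine, differed by 6.21 and 5.84, and Agxt, which detoxifies glyoxylate, by 7.84. Uroc1, Mat1a and Agxt stood at 9.96, 6.84 and 9.43 without lungs 88 and 91.

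All 18 genes of bile acid synthesis and transport were higher in liver, with a median of 6.05, or 6.745 without lungs 88 and 91. Cyp8b1, which sets the share of cholic acid, stood at 4058, 1626 and 1506 TPM in the livers and 18.5, 65.7 and 20 TPM in the lungs, and Abcc2, the canalicular exporter of conjugates, at 5732, 1090 and 1257 TPM in the livers and 1.1, 55.2 and 2.47 TPM in the lungs. Liver 11 was the highest liver for both, and for Abcc2 it was several times the other livers. Their differences were 6.16 ± 0.58 (SE, adjusted p = 6.5e-05) and 8.06 ± 1.29 (SE, adjusted p = 0.001), and 6.79 and 9.88 without lungs 88 and 91. Hsd3b7, an early enzyme of the pathway, was the most evenly shared of the named members, at 589.9, 512 and 466 TPM in the livers and 56.9, 69.2 and 56.9 TPM in the lungs (3.08 ± 0.17 SE, adjusted p = 5.4e-06).

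Among 25 genes that oxidise foreign compounds, 15 were higher in liver and 5 in lung, and 17 and 4 after centring. The median was 3.90, or 4.73 without lungs 88 and 91. Cyp2e1, which oxidises ethanol and small solvents, stood at 2283, 2252 and 2369 TPM in the livers and 28.4, 141 and 16.5 TPM in the lungs and differed by 5.78 ± 0.71 (SE, adjusted p = 0.00025). Cyp2d10 and Cyp2d26 were among the 12 largest liver-high differences, at 8.15 and 8.23, or 10.46 and 10.41 without lungs 88 and 91. The lung-high members were different enzymes. Cyp4b1, which oxidises fatty acids and activates some lung toxicants, stood at 9.71, 4.21 and 3.78 TPM in the livers and 232, 261 and 174 TPM in the lungs (-5.09 ± 0.34 SE, adjusted p = 1.2e-05). Fmo2, the flavin monooxygenase known from lung, stood at 3.74, 10.8 and 9.61 TPM in the livers and 457, 241 and 232 TPM in the lungs (-5.14 ± 0.42 SE, adjusted p = 3.3e-05), with lung 87 highest and a difference of -5.77 on that lung alone. Cyp2b10 and Cyp1b1 were higher in lung (-2.83 and -2.61), whereas the lung-high call of Fmo1 (-0.71) changed sign after centring (0.37).

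Cyp2f2, known for activating naphthalene in club cells, had no clear side, at 1006, 582 and 734 TPM in the livers and 965, 1086 and 721 TPM in the lungs. The ranges overlapped, and the difference was -0.27 ± 0.26 (SE, adjusted p = 0.36), which did not pass. After centring it was 0.81 (adjusted p = 0.016), higher in liver. Members of the P450 family share long stretches of sequence, and how the authors' counting assigned reads that fit several of them is not given in the sources used here.

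All 13 tested genes of glucose production and storage were higher in liver, with a median of 5.70. Pck1, the enzyme that commits carbon to gluconeogenesis, stood at 1158, 994 and 1169 TPM in the livers and 14.9, 54.5 and 9.96 TPM in the lungs, a difference of 5.70 ± 0.56 (SE, adjusted p = 8.2e-05). Pcx, pyruvate carboxylase, and Pygl, liver glycogen phosphorylase, which other tissues also use, were nearer to the lung level, at 3.41 and 2.69. Of 20 nuclear respiratory chain subunits, 17 were higher in liver with a median of 1.06, and all 20 were after centring, with a median of 2.14, but 11 were on lung 87 alone. Sdha, a subunit of complex II, stood at 6369, 4293 and 4465 TPM in the livers and 2059, 2325 and 1858 TPM in the lungs (1.26 ± 0.21 SE, adjusted p = 0.0012), and Cyc1, a cytochrome of complex III, differed by 1.62 ± 0.15 (SE, adjusted p = 6.7e-05).

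Hepatocyte transcription factors were mostly higher in liver. Of 18 tested, 13 were higher in liver and 1 in lung, with a median of 2.62, and 16 and 0 were after centring, or 13 and 0 on lung 87 alone. Creb3l3, a membrane-bound factor of hepatocyte lipid metabolism, stood at 254, 235 and 242 TPM in the livers and 0.0937, 5.91 and 0.457 TPM in the lungs and differed by 6.78 ± 0.65 (SE, adjusted p = 7.1e-05). Hnf4a, a nuclear receptor that acts on many hepatocyte genes and was named here after its values were seen, stood at 151, 107 and 140.2 TPM in the livers and 0, 2.79 and 0.143 TPM in the lungs (6.35 ± 0.50 SE, adjusted p = 2.7e-05). The differences of Creb3l3 and Hnf4a were 7.80 and 7.05 without lungs 88 and 91. Cebpa, which is also made by alveolar type II cells, was abundant in both tissues, at 857, 929 and 1136 TPM in the livers and 315, 416 and 314 TPM in the lungs (1.48 ± 0.19 SE, adjusted p = 0.00034). Cebpb did not pass (-0.26, adjusted p = 0.51; after centring 0.83, adjusted p = 0.13), and liver 11 was low for it at 90.9 TPM. Foxa1, a forkhead factor used by both liver and airway epithelium, was higher in lung at 39, 17.4 and 18.5 TPM in the livers and 58.9, 84.5 and 51.2 TPM in the lungs (-1.41 ± 0.35 SE, adjusted p = 0.0079), and the call was lost after centring (-0.32).

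In the lung, the genes of surfactant and of its handling included the largest lung-high difference among the genes named. Of 13 tested, 12 were higher in lung (62.5% of all genes were) and none in liver, with a median of -6.80, and 11 were after centring. Sftpb, whose product lets the phospholipid film spread, stood at 0.0616, 0 and 0.317 TPM in the livers and 6310, 6941 and 5918 TPM in the lungs. No liver reached 1 TPM, and the lungs were close to each other. The difference was -12.48 ± 0.17 (SE, adjusted p = 3.4e-07). Sftpc, a small hydrophobic surfactant protein made in type II cells, stood at 0.0447, 0.189 and 0.664 TPM in the livers and 1855, 1772 and 1873 TPM in the lungs (-10.49 ± 0.20 SE, adjusted p = 3.8e-07), and Sftpa1, a collectin, at 0.813, 0.283 and 0.442 TPM in the livers and 1707, 1712 and 1471 TPM in the lungs (-10.09 ± 0.18 SE, adjusted p = 3.4e-07). Slc34a2, the phosphate carrier of type II cells, differed by -8.26 ± 0.19 (SE, adjusted p = 5.6e-07).

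Abca3, which loads phospholipid into lamellar bodies and is a marker of type II cells, was not called. Its values were 1914, 697 and 1377 TPM in the livers and 1531, 2150 and 1498 TPM in the lungs, which overlapped, and the difference of -0.47 did not pass (adjusted p = 0.28). After centring it was 0.61. Of the 9 type II markers the other 8 were higher in lung, and the markers summed to 12600 to 13020 CPM in the lungs and to 438 to 694 CPM in the livers.

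All 9 alveolar type I markers were higher in lung, with a median of -7.79. Ager, the receptor for advanced glycation end products on type I cells, stood at 0.218, 0.13 and 0.328 TPM in the livers and 923, 1042 and 794 TPM in the lungs (-9.55 ± 0.17 SE, adjusted p = 3.4e-07), and Rtkn2 at 0, 0.0587 and 0 TPM in the livers and 647, 590.0 and 458 TPM in the lungs. The livers were close to 0 for both. Hopx, a homeodomain factor of type I cells, was the least different, at 20.4, 25.5 and 25.7 TPM in the livers and 202, 156 and 182 TPM in the lungs (-2.86 ± 0.18 SE, adjusted p = 8.6e-06). Among 15 genes of ion and water transport of the airspace 12 were higher in lung (80.0%, where 62.5% of all genes were) and 1 in liver (12 and 2 after centring, 12 and 0 on lung 87 alone), and the median was -4.78. The water channel gene Aqp5 stood at 0.0608, 0.0966 and 0.261 TPM in the livers and 456, 549.6 and 443 TPM in the lungs (-8.73 ± 0.17 SE, adjusted p = 3.8e-07), whereas Aqp1, the channel of capillaries and also of bile ducts, was nearer, at -2.24. Cftr, the chloride channel, differed by -5.26 ± 0.20 (SE, adjusted p = 1.7e-06). The liver-high member was Slc4a4, a bicarbonate cotransporter, at 18.2, 7.17 and 7.08 TPM in the livers and 3.01, 3.13 and 2.1 TPM in the lungs (1.54 ± 0.36 SE, adjusted p = 0.0059).

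Among the airway genes, Scgb1a1, the secretoglobin of club cells, stood at 0.147, 1.4 and 10.8 TPM in the livers and 9486, 8935 and 9088 TPM in the lungs. The lungs were close to each other, and liver 92 was the highest liver. The difference was -11.49 ± 0.77 (SE, adjusted p = 1.3e-05). Scgb3a1, a further secretoglobin, stood at 0.187, 0.297 and 0.214 TPM in the livers and 476, 523 and 575 TPM in the lungs (-8.73 ± 0.15 SE, adjusted p = 3.4e-07). Bpifa1, a secreted antimicrobial protein of the upper airway, had 0 reads in the 3 livers against 23006 in the lungs, so that it was at least 5190-fold higher in lung when the livers are set at a floor of 3 reads over the group. A value of 0 may be a failed estimate, which limits this and the later lower bounds. Of 7 club cell markers 5 were higher in lung (71.4%, near the 62.5% of all genes), and the exceptions, Cyp2f2 and the aldehyde dehydrogenase Aldh1a7 (0.28, adjusted p = 0.31), were higher in liver after centring (0.81 and 1.36). All 9 tested ciliated cell markers were higher in lung with a median of -4.41, 8 after centring. Tekt1, a protein of ciliary microtubules, had no reads in the livers and was at least 739-fold higher in lung, and Foxj1, the factor that sets up motile cilia, stood at 0.624, 0.991 and 1.07 TPM in the livers and 169, 216 and 123 TPM in the lungs (-6.46 ± 0.24 SE, adjusted p = 1.6e-06).

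**Figure D4:**
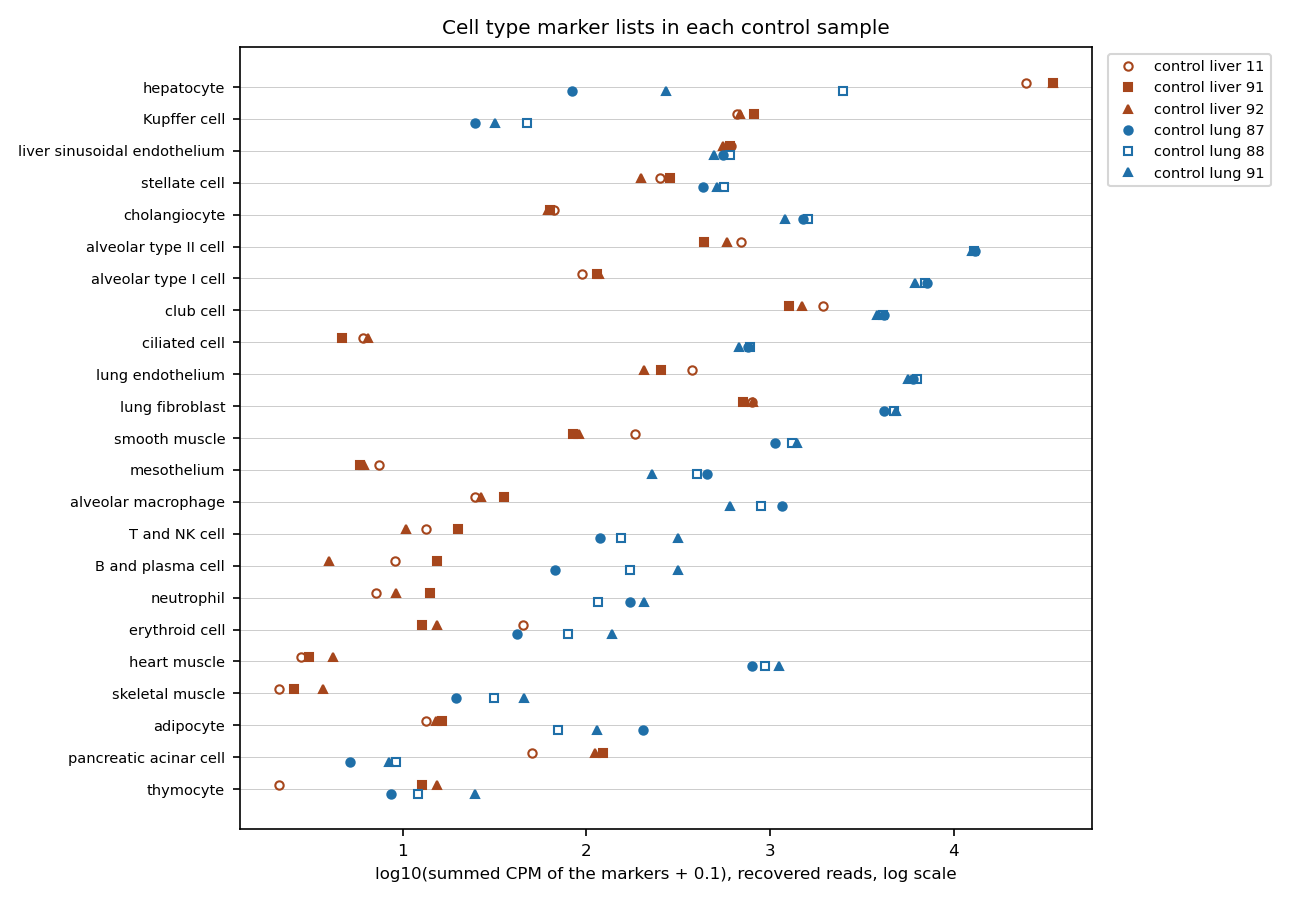
Summed CPM of 23 lists of cell type markers in each control liver and lung (log axis), each point 1 sample. Hepatocyte, Kupffer and acinar lists are higher in the livers, with lung 88 the highest lung for hepatocyte markers, the sinusoidal endothelium, erythroid and thymocyte lists overlap between the tissues, and the other lists are higher in all 3 lungs.

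All 19 tested lung transcription factors were higher in lung (62.5% of all genes were), also after centring, with a median of -4.27. Foxf1, a forkhead factor of lung mesenchyme and endothelium, stood at 10, 3.99 and 3.25 TPM in the livers and 826, 528 and 506 TPM in the lungs (-6.62 ± 0.39 SE, adjusted p = 7.3e-06), and Sox17, an endothelial factor, at 12.8, 7.49 and 5.51 TPM in the livers and 401, 324 and 431 TPM in the lungs (-5.39 ± 0.29 SE, adjusted p = 5.3e-06). Nkx2-1, which specifies lung epithelium and was named here after its values were seen, was listed at 0 in the 3 livers and stood at 192, 198 and 187 TPM in the lungs. Tbx3 was the most shared of the named factors, at 105, 39.5 and 43.4 TPM in the livers and 233, 276 and 219 TPM in the lungs (-2.08 ± 0.37 SE, adjusted p = 0.0017).

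Markers of lung endothelium and genes of vascular signalling were higher in lung as groups. All 12 of these markers and all 20 tested vascular genes were, against 62.5% of all genes. Their medians were -4.86 and -3.89, and the counts were the same after centring. Cldn5, a tight junction protein of endothelium, stood at 82.5, 118 and 104 TPM in the livers and 2907, 3066 and 2865 TPM in the lungs (-4.86 ± 0.18 SE, adjusted p = 1.6e-06). Tmem100, which acts downstream of ALK1, stood at 0.301, 1.19 and 0.344 TPM in the livers and 1349, 1210 and 1137 TPM in the lungs and gave the largest difference of the marker list, -9.62 ± 0.24 (SE, adjusted p = 7e-07). Acvrl1, which encodes ALK1, a receptor for BMP9 and BMP10 on endothelium, differed by -6.92 ± 0.14 (SE, adjusted p = 4.8e-07). Vegfa, the endothelial growth factor, was abundant in liver too, at 431, 177 and 203 TPM in the livers and 1908, 1792 and 1779 TPM in the lungs (-2.87 ± 0.33 SE, adjusted p = 0.0002), with liver 11 the highest liver. The markers of liver sinusoidal endothelium were split. Of 8 tested, 5 were higher in liver, among them Clec4g (4.83 ± 0.42 SE, adjusted p = 4.3e-05) and Dnase1l3 (4.58 ± 0.35 SE, adjusted p = 2.2e-05), and 3 in lung, or 5 and 1 both after centring and on lung 87 alone. Clec4g and Dnase1l3 stood at 5.42 and 5.18 without lungs 88 and 91. Of those 3, Lyve1, a hyaluronan receptor that lymphatic vessels share, was higher in lung at 15.4, 6.78 and 5.23 TPM in the livers and 507, 472 and 373 TPM in the lungs (-5.59 ± 0.36 SE, adjusted p = 1.1e-05), whereas Stab1 and Gpr182 (-1.08 and -0.88) had centred values of 0.00 and 0.21.

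Of 26 matrix genes 23 were higher in lung (88.5%, against 62.5% of all genes), with 1 higher in liver and a median of -3.32, and after centring 23 were higher in lung and 3 in liver. Ltbp4, which serves elastic fibre assembly, stood at 74.3, 43.9 and 48.1 TPM in the livers and 816, 884 and 639 TPM in the lungs (-3.81 ± 0.24 SE, adjusted p = 1e-05), and Mfap4, a protein of elastic fibres, at 0.863, 0.822 and 1.39 TPM in the livers and 145, 288 and 247 TPM in the lungs (-6.77 ± 0.28 SE, adjusted p = 2.2e-06), with lung 87 the lowest lung. The liver-high member was Fn1, the fibronectin gene, which hepatocytes express for plasma, at 282, 167 and 233 TPM in the livers and 34.3, 69 and 33.4 TPM in the lungs (2.34 ± 0.33 SE, adjusted p = 0.00055). Of 10 fibroblast markers 9 were higher in lung (8 after centring, with 1 in liver), including Limch1 (-9.65) and Npnt (-9.51), both among the 12 largest lung-high differences. Inmt, an N-methyltransferase, was near in level at 44, 37.9 and 44.1 TPM in the livers and 95.5, 91.1 and 109.6 TPM in the lungs (-1.21 ± 0.16 SE, adjusted p = 0.00033), and the centred value was -0.13. All 8 smooth muscle markers were higher in lung, 7 after centring, with Acta2 at 1.74, 1.7 and 2.08 TPM in the livers and 62.8, 116 and 91.4 TPM in the lungs (-4.96 ± 0.24 SE, adjusted p = 3.6e-06), and all 4 tested mesothelial markers were, with lung 91 the lowest lung for each of them.

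The resident macrophages separated the tissues in both directions. All 6 tested Kupffer markers were higher in liver, with a median of 4.05. Clec4f, a Kupffer cell lectin, stood at 135, 174 and 162 TPM in the livers and 0.0168, 3.39 and 0.278 TPM in the lungs (6.46 ± 0.53 SE, adjusted p = 3.2e-05), Cd5l differed by 5.70 ± 0.38 (SE, adjusted p = 1.2e-05) and Vsig4, a complement receptor, by 4.42 ± 0.23 (SE, adjusted p = 4.5e-06). For Clec4f the value was 7.27 without lungs 88 and 91. The markers summed to 24.7, 47.5 and 31.7 CPM in the lungs, with lung 88 highest as for the hepatocyte markers. All 9 alveolar macrophage markers were higher in lung, with a median of -3.91. After centring 7 were higher in lung and 1 in liver. Chil3, a chitinase-like protein, stood at 0.431, 0.362 and 0.217 TPM in the livers and 846, 657 and 339.9 TPM in the lungs (-8.75 ± 0.33 SE, adjusted p = 1.7e-06), and Ear2, a ribonuclease of macrophages and eosinophils, had no reads in the livers and was at least 89.6-fold higher in lung. Lung 91 was the lowest lung for both genes.

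Lymphocyte and neutrophil markers were higher in lung, 10 of 10 for T and NK cells, 5 of 5 for B and plasma cells and 7 of 8 for neutrophils, where 62.5% of all genes were. After centring the counts were 8 of 10, 4 of 5 and 5 of 8. The lungs were unequal here. Cd79a, a chain of the B cell receptor, stood at 1.96, 3.7 and 0.791 TPM in the livers and 16, 47.1 and 73.2 TPM in the lungs (-3.75 ± 0.59 SE, adjusted p = 0.0009), with lung 91 above lung 88 and lung 87 lowest (-2.54 on lung 87 alone), and the summed B cell markers were 67.5, 172 and 317 CPM in the lungs. Gzma, a protease of cytotoxic cells, stood at 1.73, 3.91 and 2.5 TPM in the livers and 44.1, 50.3 and 103 TPM in the lungs (-4.11 ± 0.37 SE, adjusted p = 5.3e-05), again with lung 91 highest. S100a8, a calcium-binding protein of neutrophils, differed by -4.38 ± 0.43 (SE, adjusted p = 7.8e-05). The liver-high neutrophil marker was Ly6g, at 7.58, 14.8 and 9.12 TPM in the livers and 0.802, 0.712 and 0.415 TPM in the lungs (2.77 ± 0.25 SE, adjusted p = 5.1e-05).

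Markers of heart muscle and fat were also higher in lung. All 8 tested heart muscle markers were called higher in lung, where 62.5% of all genes were. Their median was -6.05, and they summed to 801, 945 and 1119 CPM in the lungs against 2.69, 3.0 and 4.1 CPM in the livers. Myh6, the atrial myosin heavy chain, had no reads in the livers and was at least 9480-fold higher in lung, and Myl7 and Actc1 stood at 115, 106 and 181 TPM and 106, 145 and 143 TPM in the lungs. In mice the walls of pulmonary veins carry heart muscle, and the source of these transcripts was not tested. Adipocyte markers were at 203, 70.4 and 115 CPM in the lungs and at 13.4 to 16.3 CPM in the livers, with lung 87 highest. All 7 tested bile duct markers, such as Krt7 (-7.14), Krt19 (-6.10) and Epcam (-2.88), were also higher in lung, where other epithelia express them, and they summed to 61.6 to 66.7 CPM in the livers. Of 12 listed pancreatic acinar genes 2 passed the filter. Cela1 was higher in liver (4.37 ± 0.32 SE, adjusted p = 1.9e-05) and Rnase1 in lung (-2.63 ± 0.21 SE, adjusted p = 3.2e-05).

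**Figure D5:**
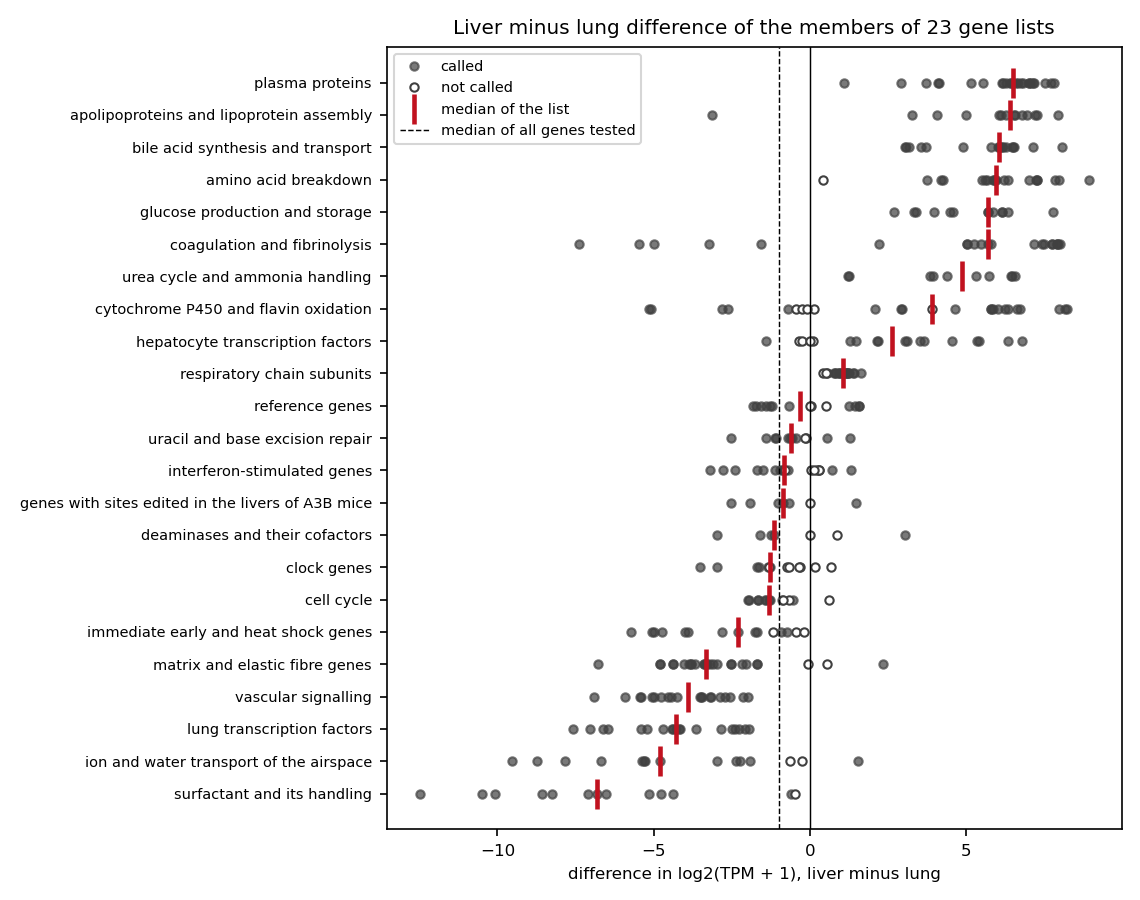
Liver minus lung differences in log2(TPM + 1) for the tested members of 23 gene lists, each gene a point (filled where called by limma), with a red bar at the median of each list and a dashed line at the median of all genes (-0.98). The plasma protein, bile acid, amino acid and glucose lists lie to the liver side, and the surfactant, transcription factor, vascular and matrix lists of the lung lie to the other side.

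Since the model concerns a cytosine deaminase, the mouse deaminases and their partners were examined in these control tissues. Apobec3, the single mouse gene of the family to which human A3B belongs, stood at 3.46, 3.32 and 3.33 TPM in the livers and 28.7, 38.2 and 34.4 TPM in the lungs. The lungs were 10-fold above the livers by mean TPM and did not overlap them, with a difference of -2.98 ± 0.17 (SE, adjusted p = 5.7e-06) that remained after centring (-1.90). Apobec1, the enzyme that edits apolipoprotein B mRNA, stood at 28.8, 16.8 and 13.5 TPM in the livers and 12.4, 21.6 and 23.7 TPM in the lungs. The ranges overlapped, and the difference of 0.01 did not pass (adjusted p = 0.98), whereas the centred value was 1.10 (adjusted p = 0.0078). Its RNA-binding partner A1cf stood at 27, 3.85 and 4.04 TPM in the livers and 0.0121, 0.208 and 0.02 TPM in the lungs (3.03 ± 0.65 SE, adjusted p = 0.0044), with liver 11 several times the other livers, and the partner Rbm47 at 58.3, 20.5 and 32.7 TPM in the livers and 18.1, 22.4 and 15.3 TPM in the lungs, which did not pass (adjusted p = 0.07) before centring and did after it (1.94). Adar, the main adenosine deaminase acting on RNA, stood at 149.5, 83.4 and 94.7 TPM in the livers and 216, 287 and 261 TPM in the lungs (-1.25 ± 0.25 SE, adjusted p = 0.0031), and Adarb1 differed by -1.58 ± 0.16 (SE, adjusted p = 0.0001). Their centred values were -0.17 and -0.50. Apobec2, Adarb2, Adat1 and Adat2 were below the filter, with Apobec2 at 0.0317, 0.0151 and 0.0109 TPM in the livers and 0.506, 0.74 and 0.876 TPM in the lungs and the others at or below about 1 TPM in every sample.

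The human transgene row, hAPOBEC3B, lay below the filter and was not tested. It stood at 0.144, 0.143 and 0.0929 TPM in the livers and 0.472, 0.435 and 0.526 TPM in the lungs, which rested on 8, 5 and 3 reads in the livers and 26, 27 and 28 reads in the lungs. All lungs were above all livers, lung 87 among them, which by its label carries no A3B transgene. The origin of these reads was not tested.

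The 7 genes listed for edited sites in the livers of A3B mice had no common direction. Of them 1 was higher in liver and 5 in lung, where 14.8% and 62.5% of all genes were, or 3 and 2 after centring and 1 and 3 on lung 87 alone. Ccp110 stood at 1.7, 0.448 and 0.445 TPM in the livers and 10.4, 8.79 and 8.85 TPM in the lungs (-2.54 ± 0.26 SE, adjusted p = 0.00011) and Arhgap29 at 102, 61.2 and 47.5 TPM in the livers and 257, 272 and 239.5 TPM in the lungs (-1.92 ± 0.28 SE, adjusted p = 0.00064), both higher in lung also by centred value (-1.45 and -0.84). Bri3bp was higher in liver, at 27.2, 25.6 and 21.4 TPM in the livers and 7.26, 8.45 and 8.88 TPM in the lungs (1.48 ± 0.17 SE, adjusted p = 0.00018). Larp4 did not pass, at 2.47, 0.975 and 0.979 TPM in the livers and 1.58, 1.4 and 1.2 TPM in the lungs, and its centred value was 1.08 (adjusted p = 0.00075). For Capzb, Itsn1 and Ube2d2a the lung-high differences of -1.03, -0.67 and -0.85 turned to 0.06, 0.41 and 0.23 after centring, so that their direction depends on the scale.

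Of 12 tested genes of uracil and base excision repair, 2 were higher in liver (16.7%) and 8 in lung (66.7%), shares near the 14.8% and 62.5% of all genes. After centring 6 and 1 were, and the median went from -0.61 to 0.47, while 1 and 3 were on lung 87 alone. Apex1, the endonuclease that cuts at abasic sites, was higher in liver on both scales, at 54.6, 74.9 and 81.8 TPM in the livers and 24.5, 32.8 and 28 TPM in the lungs (1.27 ± 0.21 SE, adjusted p = 0.0012). Polb and Xrcc1, whose products act at the gap, differed by -0.64 and -1.12 and by 0.44 and -0.04 after centring. Parp1 did not pass (-0.16, adjusted p = 0.58) and was higher in liver after centring (0.92, adjusted p = 0.0041).

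Genes often used as references were called about as often as all genes tested, so most were not level between the tissues. Their share higher in lung was below the 62.5% of all genes. Of 14 tested, 4 were higher in liver (28.6%, against 14.8% of all genes) and 7 in lung, 7 and 3 after centring, and 4 and 3 on lung 87 alone. Gapdh stood at 1281, 1012 and 1285 TPM in the livers and 467, 459.6 and 397 TPM in the lungs (1.43 ± 0.17 SE, adjusted p = 0.00023) and Pgk1 differed by 1.57 ± 0.17 (SE, adjusted p = 0.00013), both glycolytic enzymes, whereas Actb stood at 266, 268 and 259.7 TPM in the livers and 628, 722 and 599 TPM in the lungs (-1.29 ± 0.15 SE, adjusted p = 0.00018), with a centred value of -0.20. Ppia and Rplp0 had differences of 0.03 and 0.00 and centred values of 1.12 and 1.09. Tfrc, the transferrin receptor, and Polr2a, a subunit of RNA polymerase II, were higher in lung (-1.82 and -1.71, or -0.74 and -0.63 after centring).

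Among 18 interferon-stimulated genes 10 were higher in lung (55.6%, against 62.5% of all genes) and 2 in liver (11.1%, against 14.8%), and 3 and 7 after centring, or 3 and 2 on lung 87 alone. These shares were near those of all genes. Ifit3, an antiviral RNA-binding protein, stood at 19, 18.1 and 21.4 TPM in the livers and 130.5, 106 and 89.1 TPM in the lungs (-2.40 ± 0.19 SE, adjusted p = 2.6e-05), and Bst2, tetherin, was higher in liver at 352, 605 and 513 TPM in the livers and 269, 285 and 329.9 TPM in the lungs (0.70 ± 0.23 SE, adjusted p = 0.027). Irf9, which carries interferon signals to the nucleus, had a lung-high difference of -0.87 that turned to 0.22 after centring. Of 15 immediate early and heat shock genes, 12 were higher in lung (80.0%), and 9 were after centring, with 1 in liver. Jun, a subunit of AP-1, stood at 103, 57.9 and 47 TPM in the livers and 2052, 1844 and 1477 TPM in the lungs (-4.74 ± 0.31 SE, adjusted p = 1.1e-05), and Dusp1, a phosphatase of MAP kinases, at 14.5, 8.76 and 14 TPM in the livers and 324, 194 and 115 TPM in the lungs (-3.89 ± 0.39 SE, adjusted p = 9.3e-05), with lung 87 highest and a difference of -4.63 on that lung alone.

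Of 13 cell cycle genes 10 were higher in lung (76.9%, against 62.5% of all genes), and 2 were after centring, with 2 higher in liver. On lung 87 alone 5 were higher in lung. Mcm2, a subunit of the replicative helicase, stood at 1.62, 1.88 and 1.57 TPM in the livers and 8.49, 12.1 and 7.98 TPM in the lungs (-1.95 ± 0.18 SE, adjusted p = 6.7e-05). Of 13 clock genes 6 were higher in lung (46.2%, where 62.5% of all genes were) and none in liver, and after centring 1 was higher in lung and 2 in liver. Per3, a repressor of the clock, stood at 8.06, 17.8 and 39.1 TPM in the livers and 316, 87.3 and 120.3 TPM in the lungs (-2.99 ± 0.65 SE, adjusted p = 0.0045), and Tef, an output factor, at 107, 159 and 263 TPM in the livers and 925, 382 and 440.1 TPM in the lungs (-1.70 ± 0.44 SE, adjusted p = 0.0096). Lung 87 was the highest sample for both, and liver 92 the highest liver. On lung 87 alone the differences were -4.06 and -2.48.

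To compare levels between genes, recovered reads were divided by annotated exon length (RPKM), because the lengths behind the deposited TPM followed the annotation poorly. On this scale the most abundant liver transcripts were Alb (5950 ± 1350 RPKM, SD, n = 3), Apoa1 (3730 ± 1050), Apoa2 (3350 ± 967), Trf (2920 ± 618) and Apoe (2900 ± 690). The lung was led by Sftpc (3600 ± 235), Scgb1a1 (3040 ± 166), Cbr2 (1910 ± 148), Sftpb (1540 ± 66.9) and Lyz2 (1500 ± 114). Among these 5 genes of each tissue, neighbours after Alb in the liver order lay within 1 SD of each other, and in lung Sftpb and Lyz2 did. Ftl1, the ferritin light chain, and Eef1a1, a translation factor, were among the leading genes of lung and also stood at 2170 and 1530 RPKM in liver. Inmt, at 1150 RPKM in lung, stood at 522 RPKM in liver, and Cyp2f2 at 808 and 723 RPKM.

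The genes with the largest differences came from several cell types and pathways. The 12 largest lung-high genes ranged from Sftpb (-12.48) over Cbr2, a carbonyl reductase of club cells (-12.40), Lyz1, a lysozyme (-9.86), and Cxcl15, a lung chemokine (-9.79), to Npnt (-9.51). Sec14l3, a lipid-binding protein, had no recovered reads in the livers and was at least 52200-fold higher in lung on the floor of 3 reads, unless that 0 is a failed estimate. The 12 largest liver-high genes ranged from Aadat, a kynurenine aminotransferase (9.06), Hpd (8.91) and Mbl2, a lectin of complement (8.46), to Uroc1 (7.97), and included the canalicular transporters Abcg8 (8.11) and Abcc2 (8.06). The values of Aadat were 25610, 14270 and 14910 TPM in the livers and 2.82, 310.3 and 29.2 TPM in the lungs. As for albumin, the lungs were spread over 2 orders of magnitude, and without lungs 88 and 91 the difference was 12.17, and those of Mbl2 and Abcg8 were 11.71 and 9.62. On the same alternative Sftpb stood at -12.46, against -12.48 with all lungs.

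Motifs were counted in the window from 250 bases before to 50 after the start, on both strands, for the 10307 of 13258 tested genes with a RefSeq entry. The HNF1 letters GTTAATNAT were present in 0.563% of these, in 7.14% of genes higher in liver by at least 4 on the log2 scale and in 0.207% of those higher in lung by as much. The HNF4 letters CAAAGTCCA were present in 0.485%, 3.74% and 0.207%, and the FOXA letters TGTTTAC in 2.69%, 5.78% and 2.69%. The NKX2-1 letters CACTTGA were present in 2.07%, 2.72% and 3.11%. The TATA box TATAAA was present in 7.91%, 22.1% and 11.8%, while the GC box GGGCGG was present in 61.4%, 21.1% and 55.3%. These shares are descriptions of 294 liver-high and 483 lung-high windows. In the windows printed above, the HNF1 letters of Fga lie 46 to 38 bases before the start, the HNF4 letters of Cyp8b1 67 to 59 and its TATA box 31 to 26 bases before it, and the NKX2-1 letters of Scgb3a1 174 to 168 bases before it.

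The same tissues of mice with induced A3B, 3 livers and 3 lungs of other animals, 1 of which gave both tissues, were fitted without pairing and gave the same sign for 9124 of the 10237 calls. With their own limma test 6129 of these calls passed in the same direction and 135 in the opposite one. For Alb the A3B mice gave a difference of 4.47, for Fga 6.62, for Sftpb -12.13 and for Acvrl1 -6.25. The controls had 6.48, 8.0, -12.48 and -6.92. By the labels, the A3B mice had fewer days on doxycycline than the controls. Some of the A3B livers also had more days on it than the A3B lungs. The part of treatment length in the counts of shared and opposite calls was not tested.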

How the data were processed

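RNA from liver and lung was sequenced by the authors as paired ends from stranded TruSeq libraries of total RNA, and duplicates were removed before counting, per the file headers. The authors counted reads per gene on mm10 with GenomicAlignments and GenomicFeatures and deposited TPM, 1 column per sample. Kallisto tables with estimated counts and TPM, deposited by the authors for other samples, served here only to check gene lengths. Each TPM column sums to 1000000, so that a few abundant genes lower all others. Values of 19662 of 19664 genes with at least 2 values were whole multiples of 1 read within a tolerance of 0.01, and reads, CPM and RPKM (GENCODE M21 exon lengths) were recovered from these whole-read steps. The implied gene lengths followed annotated ones poorly (Spearman's rho over 16630 genes 0.275), so levels in TPM were compared between samples only. TPM still set the thresholds, the choice of list members to name and the 50 highest genes by TPM, which carry this limit. 26 rows with dates as names and repeated names (4 rows) were left out.

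Genes whose mean over the 6 control samples was 1 TPM or more were tested on log2(TPM + 1) with limma 3.58.1 (trend and robust) in R 4.3.3, liver against lung, with Benjamini-Hochberg adjustment over all 13258 genes and a threshold of 0.05. edgeR 4.0.16 (quasi-likelihood, TMM) on the recovered reads was an alternative. Python 3.11.15, pandas 2.3.3, numpy 2.4.6 and matplotlib 3.10.9 were used for tables and figures. The limma step was tested on simulated data. Controls were grouped by their titles, for liver 11 against its genotype label, and came from separate mice, apart from mouse 91 among the controls and 1 A3B mouse that gave both a liver and a lung. An exact permutation of 3 against 3 cannot go below 0.1, and no such test was used.

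The comparison, the members of the 48 lists and the tests were chosen with earlier results of these data known, and lists are described by counts and medians only. Genes were named by a rule: the 12 largest called differences each way (mean in the higher tissue 10 TPM or more, no overlap), up to 4 members of each list by mean TPM with any called member opposite to its list, all detected deaminases, edited-site genes and reference genes, and the transgene. Some genes that the rule names are not reported here, and they stay in the counts and medians of their lists. Genes named outside the rule are Hp, Oat, Ass1, Hnf4a, Nkx2-1, Aldh1a7, Mup20, Sult2a1 and Ctsh, chosen after their values were seen, and Apoe, Lyz2, Ftl1 and Eef1a1 among the highest RPKM levels. A gene listed at 0 may be a failed estimate, since genes that every cell or tissue of this kind uses were also at 0.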

Additional observations from a re-analysis of the deposited data

How the results depend on the processing

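After centring on the median gene 4772 genes were higher in liver and 4266 in lung, after quantile normalization 4514 and 4660, and with edgeR on recovered reads 5034 and 6398 of 16195 tested. With a difference of at least 2 required as well the counts were 828 and 3166, and without lungs 88 and 91, which leaves 1 lung assumed to vary like the livers, 1245 and 5494. Leaving out 1 sample at a time gave 1675 to 2211 genes higher in liver and 7574 to 9047 higher in lung. No paired analysis was possible because the 6 control samples share only 1 mouse, and the planned block could not be fitted. With mouse as a random replicate block over all 12 samples (chosen after seeing the data, as were edgeR, RPKM and leaving out lungs 88 and 91) 1969 and 8403 genes were called. The other pseudocount, filters, reference centring, plain limma, RPKM and the fit on 12 samples stayed within 1.5 times the main counts. Without both samples of mouse 91 they were 1513 and 6664.

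Of the 10237 calls, 6222 were still called in the same direction after centring, 6576 after quantile normalization and 6508 of 10174 with edgeR. The other sign was found for 2140 after centring (478 called that way), 1948 after quantile normalization (717) and 1843 with edgeR (352). No call changed sign under the remaining settings, which keep the TPM or RPKM scale or centre on reference genes.

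Named genes with a lung-high call that turned positive, with the value after centring, were Fmo1 (0.374), Capzb (0.057), Itsn1 (0.414), Ube2d2a (0.234), Polb (0.444), Hprt (0.428), Irf9 (0.218), Cdk1 (0.192), Ier2 (0.146), Gpr182 (0.206), Stab1 (0.003) and Mylpf (0.249). With edgeR they were Fmo1 (0.476), Capzb (0.144), Itsn1 (0.346), Ube2d2a (0.334), Polb (0.513), Hprt (0.503), Irf9 (0.274), Cdk1 (0.153), Ier2 (0.25), Gpr182 (0.257) and Mylpf (0.034). After quantile normalization they were Syncrip (0.187), Itsn1 (0.608), Polb (0.254), Tbp (0.049), Hprt (0.181), Cdk1 (0.301), Stab1 (0.142) and Mylpf (0.508). Centring and quantile normalization change the scaling, and edgeR also the values, the test and the filter. The cause was not tested.

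Depth was 23182200 to 50318447 reads per sample, with no molecular identifiers, so that a floor of 3 reads covers counting error only. Liver 11 held 3060 reads of Y-linked Ddx3y and each other sample 1 to 5, so the 3 livers cannot be taken as alike in sex, and the sources disagree on treatment for 5 of the 6 samples.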

Other observations

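The stellate cell, erythroid, skeletal muscle and thymocyte marker lists gave mixed results. Of 5 tested stellate cell markers 2 were higher in liver and 2 in lung, also after centring, where 14.8% and 62.5% of all genes were before it. Reln, a secreted glycoprotein of stellate cells, stood at 35.7, 21 and 19 TPM in the livers and 3.64, 4.97 and 2.39 TPM in the lungs (2.48 ± 0.31 SE, adjusted p = 0.00027), and all livers were above all lungs. Des and Pdgfrb, which pericytes and smooth muscle share, were higher in lung (-3.69 and -3.21). Hgf, the hepatocyte growth factor gene, did not pass (-1.19, adjusted p = 0.15), had a centred value of -0.10, and liver 11 stood at 23.1 TPM against 3.89 and 2.58 TPM in the other livers.

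Of the erythroid markers, Alas2, the first enzyme of heme synthesis in red cells, passed the filter at 9.98, 2.54 and 3.13 TPM in the livers and 9.23, 18.1 and 29.3 TPM in the lungs (-1.74 ± 0.54 SE, adjusted p = 0.022), with overlapping ranges, a centred value of -0.65 and a value of -0.91 without lungs 88 and 91, while the globin gene Hba-a1 was listed at 0 in every sample. All 3 tested skeletal muscle markers were called higher in lung (2 after centring), where 62.5% of all genes were. Tnnt3 stood at 0.469, 0 and 0.804 TPM in the livers and 32.5, 80.6 and 118 TPM in the lungs (-5.63 ± 0.48 SE, adjusted p = 3.8e-05). Its value was -4.60 without lungs 88 and 91, and Mylpf turned from -0.84 to 0.25 after centring. The one tested thymocyte marker, Dntt, was called higher in liver at 0.354, 2.26 and 3.05 TPM in the livers and 0.142, 0.234 and 0.221 TPM in the lungs (1.13 ± 0.38 SE, adjusted p = 0.03), with liver 11 well below the other livers.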
